A study of Mus musculus with 15 samples.

Results

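The genes described here are 41 protein-coding genes of distal mouse chromosome 17 around Msh6, of 37310 genes in the count table. They were selected on the count values of these same libraries, after Msh6 and its neighbours had been seen to be lower in the knockouts, so their levels in each knockout against its own wild type are a description and carry no test. Of the 41 genes, 39 had enough counts to be tested across both experiments. Cyp1b1, a cytochrome P450 enzyme, had 1 to 10 counts per library and Haao, an enzyme of tryptophan breakdown, had 0 to 2, and neither is counted below.

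The RNA-seq libraries came from J1 cells, a mouse embryonic stem cell line, grown in serum with LIF, the cytokine that holds such cells in the pluripotent state. The 15 libraries formed 5 groups of 3, named here Taf5l-KO, Taf6l-KO and WT-Taf for the Taf experiment, and Myc-KO and WT-Myc for the c-Myc experiment. Each knockout carries a disruption of the gene in its name, both wild types are unmodified J1 cells, and the labels give no account of how the alleles were made or of how many clones were used. The labels number the replicates without saying whether they are separate cultures, so the spread and the p-values describe these libraries and may be technical. Both Taf knockouts are set against the same 3 WT-Taf libraries. All Myc-KO libraries share the tag MycC5 in their descriptions, and its meaning is not given.

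TAF5L and TAF6L are core subunits of SAGA, a coactivator complex that acetylates histones at promoters, and MYC is a transcription factor that binds the E-box CACGTG at the promoters of many growth genes. MSH6 is a subunit of the protein pair that recognises base mispairs at the start of DNA mismatch repair. Neighbouring genes usually have promoters of their own, whereas the number of copies of a chromosome segment sets the gene dose of everything within it, so the question was whether the neighbours were lower together and by a uniform factor. DNA copy number was not measured in these libraries, and its part in the values below was not tested. In bulk RNA, fewer cells that express a gene and less of its RNA per cell cannot be told apart.

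The libraries held 14935631 to 27650813 counts. The targeted gene was at 49.5% of WT-Taf for Taf5l in Taf5l-KO, at 25.1% of WT-Taf for Taf6l in Taf6l-KO and at 43.7% of WT-Myc for Myc in Myc-KO. All 5 embryonic stem cell markers (Pou5f1, Sox2, Nanog, Esrrb and Zfp42) were detected, and they summed to 2822 to 2856 CPM (counts scaled to a common library size) in Taf5l-KO, 2763 to 2836 CPM in Taf6l-KO and 3174 to 3189 CPM in WT-Taf. In the c-Myc experiment their sum was 4658 to 4742 CPM for Myc-KO and 4314 to 4413 CPM for WT-Myc. Without Vim, which stem cells also express, the fibroblast markers (Col1a1, Col1a2, Col3a1 and Thy1) summed to 4.27 to 9.0 CPM in every library. With Vim, the 5 markers summed to 171 to 175 CPM in Taf5l-KO, 166 to 171 CPM in Taf6l-KO and 185 to 193 CPM in WT-Taf. In the c-Myc experiment the sum with Vim was 140 to 157 CPM in Myc-KO, against 417 to 422 CPM in WT-Myc. Replicate 3 of Myc-KO stood apart from the others of its group: the chi-square over genes, divided by its degrees of freedom, was 36.4 and 26.3 against them, and 5.07 between those 2 libraries.

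The sequences below, from RefSeq on build GRCm38.p6, run from 250 bases before to 50 bases after the annotated gene start. Msh6 is shown as the gene the neighbourhood is named for, Epcam because its window holds an E-box, and Cript with Pigf because the windows of this divergent pair share 259 bases on opposite strands. Capitals mark CACGTG.
Msh6, chr17:87974800-87975099, plus strand: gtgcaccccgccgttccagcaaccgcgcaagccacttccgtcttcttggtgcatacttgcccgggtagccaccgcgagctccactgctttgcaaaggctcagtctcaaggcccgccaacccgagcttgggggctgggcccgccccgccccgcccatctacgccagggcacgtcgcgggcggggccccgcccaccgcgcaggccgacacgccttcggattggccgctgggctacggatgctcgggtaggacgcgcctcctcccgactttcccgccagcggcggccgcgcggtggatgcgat
Epcam, chr17:87635729-87636028, plus strand: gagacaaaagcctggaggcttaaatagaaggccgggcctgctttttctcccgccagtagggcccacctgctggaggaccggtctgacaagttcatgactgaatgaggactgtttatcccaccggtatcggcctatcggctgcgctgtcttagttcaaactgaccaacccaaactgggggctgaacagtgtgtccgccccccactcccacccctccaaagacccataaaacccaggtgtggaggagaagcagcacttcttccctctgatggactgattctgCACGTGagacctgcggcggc
Cript, chr17:87025311-87025610, plus strand: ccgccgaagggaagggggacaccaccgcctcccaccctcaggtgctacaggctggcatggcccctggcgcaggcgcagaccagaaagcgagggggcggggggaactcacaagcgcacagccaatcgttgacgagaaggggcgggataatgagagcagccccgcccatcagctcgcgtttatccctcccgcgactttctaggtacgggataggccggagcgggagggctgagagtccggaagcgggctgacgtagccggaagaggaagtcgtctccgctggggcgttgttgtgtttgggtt
Pigf, chr17:87025352-87025651, minus strand: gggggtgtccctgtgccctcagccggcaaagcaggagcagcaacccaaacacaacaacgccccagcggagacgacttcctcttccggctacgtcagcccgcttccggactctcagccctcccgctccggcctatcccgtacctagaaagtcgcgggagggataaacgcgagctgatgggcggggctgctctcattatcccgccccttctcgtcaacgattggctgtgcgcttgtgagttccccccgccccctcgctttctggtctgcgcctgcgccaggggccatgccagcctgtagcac
RefSeq gave 34 such windows for 28 of the 41 genes. The letters CACGTG, which read the same on both strands, occurred in 5 of the 34 windows (14.7%), at Eml4, Epcam, Mcfd2 and Thumpd2, against 2349 of all 32851 windows (7.15%). A gene with several windows can count more than once there. Counted by gene, 4 of the 28 had the letters, against 2187 of all 27025 genes with a window. Msh6, Cript and Pigf have none in the windows printed.

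Msh6 was lower in every knockout library than in every wild-type library. It had 383, 394 and 397 CPM in Taf5l-KO and 390.4, 374 and 383 CPM in Taf6l-KO, against 789, 797 and 779 CPM in WT-Taf. In the c-Myc experiment it had 490.1, 474 and 491 CPM in Myc-KO, against 1044, 1050.2 and 1013 CPM in WT-Myc. These are log2 fold changes of -1.01 ± 0.030 in Taf5l-KO, -1.04 ± 0.030 in Taf6l-KO and -1.10 ± 0.041 in Myc-KO (SE, n = 3 libraries a group), or 49.7%, 48.5% and 46.8% of the wild-type level. No knockout library overlapped a wild-type one.

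The genes next to Msh6 on either side were also lower, but by other amounts. On the distal side, Fbxo11, the substrate receptor of an SCF ubiquitin ligase, was at 59.6% of WT-Taf in Taf5l-KO, 57.7% of WT-Taf in Taf6l-KO and 61.6% of WT-Myc in Myc-KO. Foxn2, a forkhead transcription factor and the most distal gene of the 41, had 46.6, 49.0 and 49.4 CPM in Taf5l-KO and 46.0, 46.9 and 50.5 CPM in Taf6l-KO, against 82.7, 84.6 and 83.4 CPM in WT-Taf. It had 26, 25.9 and 30.2 CPM in Myc-KO, against 62.2, 58.9 and 51.8 CPM in WT-Myc. The groups of Foxn2 did not overlap in either experiment, and its log2 fold changes were -0.79 ± 0.042, -0.81 ± 0.041 and -1.07 ± 0.091 (SE) in Taf5l-KO, Taf6l-KO and Myc-KO.

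On the proximal side, Epcam and Calm2 ran in opposite orders between the experiments. Epcam, an epithelial cell adhesion molecule carried by embryonic stem cells, had 21.3, 24.3 and 24.1 CPM in Taf5l-KO and 21.6, 22.9 and 21.5 CPM in Taf6l-KO, against 31.1, 29.8 and 30.3 CPM in WT-Taf. In the c-Myc experiment Epcam had 15.2, 14.2 and 13.7 CPM in Myc-KO, against 38.5, 34.1 and 35.2 CPM in WT-Myc. It was thus at 76.6% and 72.4% of wild type in Taf5l-KO and Taf6l-KO and at 40.1% in Myc-KO. Calm2, one of the genes that encode the calcium sensor calmodulin, had 131, 139 and 139 CPM in Taf5l-KO and 141, 144 and 136 CPM in Taf6l-KO, against 242, 243 and 243 CPM in WT-Taf. Its levels were 173, 185 and 225 CPM in Myc-KO, against 264, 247 and 236 CPM in WT-Myc, with the library that stands apart the highest Myc-KO one. Calm2 was therefore at 56.1% and 57.9% of wild type in Taf5l-KO and Taf6l-KO and at 78.0% in Myc-KO.

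**Figure D1:**
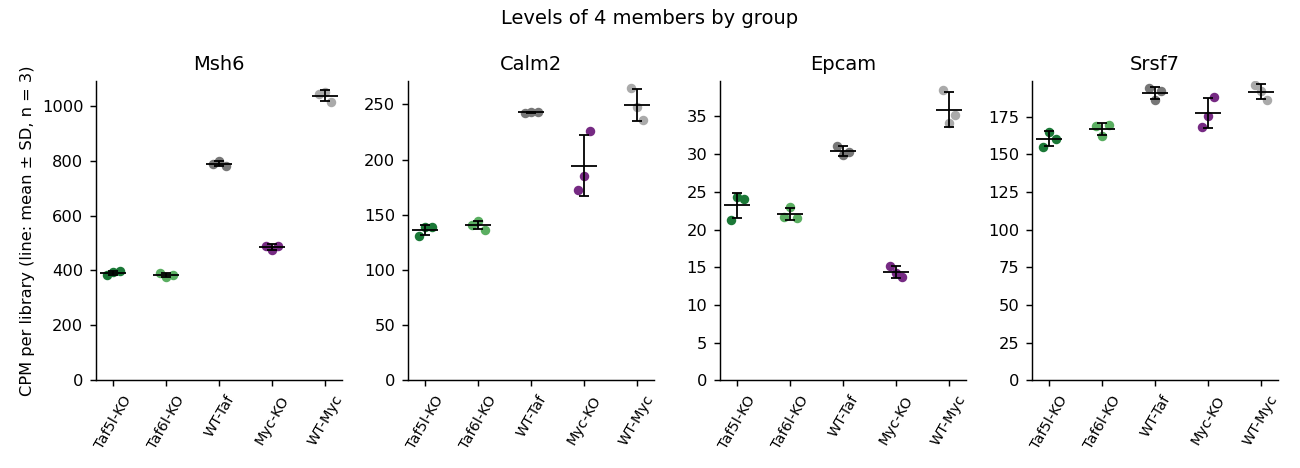
Level of Msh6, Calm2, Epcam and Srsf7 in each library (vertical axis, CPM, starting at 0) for the 5 groups, each knockout to the left of its wild type; points are libraries, and the line and bars give the mean ± SD of 3 libraries. Msh6 was at 374 to 397 CPM in both Taf knockouts and at 779 to 797 CPM in WT-Taf, whereas the Myc-KO and WT-Myc libraries of Srsf7 overlapped.

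The lower levels extended over a run of neighbouring genes and ended within a few genes at both ends. Of 604 tested protein-coding genes of chromosome 17, the 39 tested ones around Msh6 lie among the 51 genes at ranks 550 to 600 in gene order, counted from the centromere. Their median log2 fold change was -0.68 in Taf5l-KO, -0.70 in Taf6l-KO and -0.88 in Myc-KO, against 0.00054, 0.020 and -0.0018 over all genes tested. By edgeR's quasi-likelihood test, with p-values adjusted over all genes, 37 of 39 were called lower in Taf5l-KO (15.9% of all genes were), 38 in Taf6l-KO (18.2%) and 37 in Myc-KO (19.5%), and none was called higher (17.4%, 19.1% and 15.2% of all genes). All 3 knockout libraries lay below all 3 wild-type libraries for 37, 39 and 37 of the 39 genes, where 22%, 23.5% and 26.7% of all genes did so. Since these contrasts chose the genes, nothing is read from these counts.

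**Figure D2:**
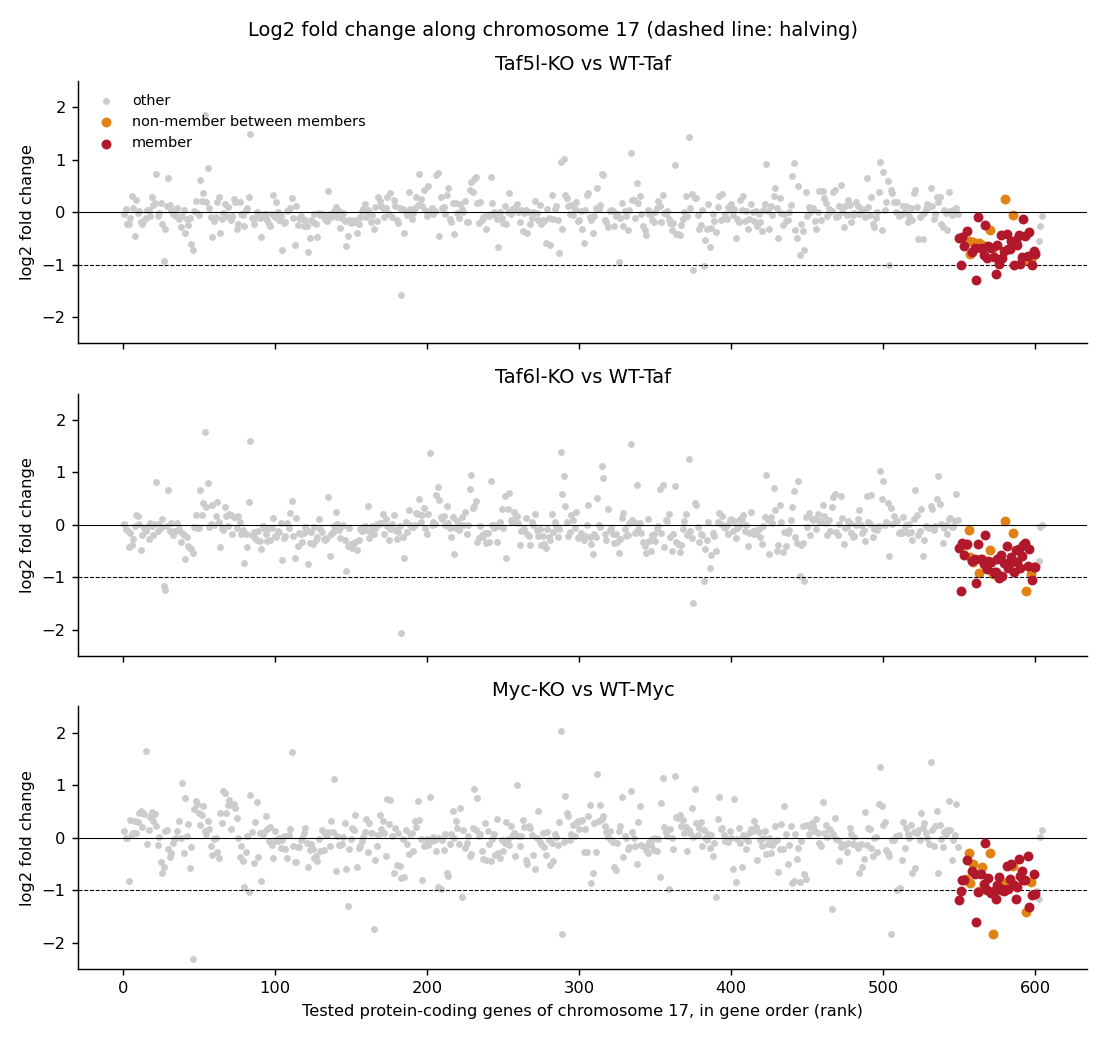
Log2 fold change (vertical axis) of the 604 tested protein-coding genes of chromosome 17 in gene order (horizontal axis, rank) in Taf5l-KO and Taf6l-KO against WT-Taf and in Myc-KO against WT-Myc; red points are the 39 tested genes around Msh6, orange points the 12 other genes between them, grey points the rest, and the dashed line marks -1. The genes at ranks 550 to 600 lie below 0 with few exceptions in all 3 panels. The median of the other 598 tested genes of the chromosome was -0.014, -0.049 and 0.0016. Those 598 include genes that are not protein-coding and are not drawn.

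The 12 tested protein-coding genes that lie between the 39 but were not among those chosen had median log2 fold changes of -0.57 in Taf5l-KO, -0.64 in Taf6l-KO and -0.82 in Myc-KO. Of these 12, 8, 7 and 10 were called lower (15.9%, 18.2% and 19.5% of all genes) and none higher (17.4%, 19.1% and 15.2%). Hnrpll, an RNA-binding splicing regulator, had -0.62 ± 0.048, -0.66 ± 0.047 and -0.57 ± 0.073 (SE). Those not called were Morn2, in all 3 knockouts, Cdkl4 in Taf5l-KO, Ccdc75 in Taf6l-KO, Sult6b1 in Taf6l-KO (-0.098 ± 0.14) and Myc-KO (-0.28 ± 0.12), and a further pair in both Taf knockouts. That pair was Plekhh2, at 0.24 ± 0.14 in Taf5l-KO and 0.072 ± 0.14 in Taf6l-KO, where it was -0.87 ± 0.11 in Myc-KO, and 1700106N22Rik, at -0.061 ± 0.12 and -0.16 ± 0.12, where it was -0.54 ± 0.093 in Myc-KO. The 3 processed pseudogenes between the genes (Gm10093, Gm6548 and Gm6594) had log2 fold changes of -0.058 to 0.87 in the 3 knockouts, and counts of such near-identical copies are uncertain.

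At the proximal end Crim1, a transmembrane protein that binds bone morphogenetic proteins, was the outermost of the 41 genes. Its level was 2.49, 2.29 and 2.66 CPM in Taf5l-KO and 2.79, 2.81 and 2.20 CPM in Taf6l-KO, against 3.67, 3.08 and 3.86 CPM in WT-Taf, and 2.46, 2.60 and 1.90 CPM in Myc-KO, against 4.86, 5.82 and 5.09 CPM in WT-Myc. The next proximal gene, Fam98a, had log2 fold changes of -0.043 ± 0.045 in Taf5l-KO, 0.092 ± 0.044 in Taf6l-KO and -0.18 ± 0.075 in Myc-KO, none past the threshold. Rasgrp3 and Ltbp1 beyond it lay between 0.016 and 0.65. Over the next 15 proximal genes the median was 0.030, 0.066 and 0.072. Of these 15, 2, 1 and 1 were called lower (15.9%, 18.2% and 19.5% of all genes). Called higher were 2, 3 and 2 (17.4%, 19.1% and 15.2% of all genes).

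Past Foxn2 at the distal end, Klraq1 was at -0.76 ± 0.082, -0.77 ± 0.081 and -1.02 ± 0.069 in Taf5l-KO, Taf6l-KO and Myc-KO, and Ston1, an endocytic adaptor, at -0.55 ± 0.13, -0.70 ± 0.13 and -1.18 ± 0.084 (log2 fold change ± SE). Only 2 tested protein-coding genes follow. Gm10184 had -0.26 ± 0.040, -0.036 ± 0.040 and 0.018 ± 0.055, of which the first passed the threshold (adjusted p = 0.00023, edgeR's quasi-likelihood test). Mettl4, a methyltransferase, had -0.079 ± 0.061, -0.0063 ± 0.060 and 0.14 ± 0.14.

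Counted over all 3 knockouts, 35 of the 39 genes were called lower in each, as were 479 of the 14142 genes tested in both experiments (3.39%). In the run from Crim1 to Ston1 the count was 43 of 53 protein-coding genes. That run holds the chosen genes, and its end at Ston1 was set after the values were seen. Its count is therefore a description and carries no test. Among the other 598 tested genes of chromosome 17, with Klraq1 and Ston1 counted there, 24 were called lower in all 3 knockouts. These 598 include genes that are not protein-coding. The 39 genes took 0.164% to 0.172% of all counts in Taf5l-KO and 0.175% to 0.179% in Taf6l-KO, against 0.284% to 0.288% in WT-Taf, and 0.192% to 0.201% in Myc-KO, against 0.329% to 0.343% in WT-Myc.

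The middle of the distribution was alike in the libraries of a group. Relative to the wild-type mean of its experiment, the median gene was at 62.4%, 61.4% and 62.2% in the 3 Taf5l-KO libraries and at 61.3%, 63.0% and 60.6% in the Taf6l-KO libraries, against 100%, 101.1% and 99.3% in the WT-Taf libraries. It was at 54.1%, 52.3% and 54.7% in the Myc-KO libraries, against 103.8%, 101.1% and 96.3% in the WT-Myc libraries. All 39 genes were below 100% of the wild-type mean in every knockout library. The medians over the rest of chromosome 17 were 95.9% to 101.4% in the 15 libraries.

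**Figure D3:**
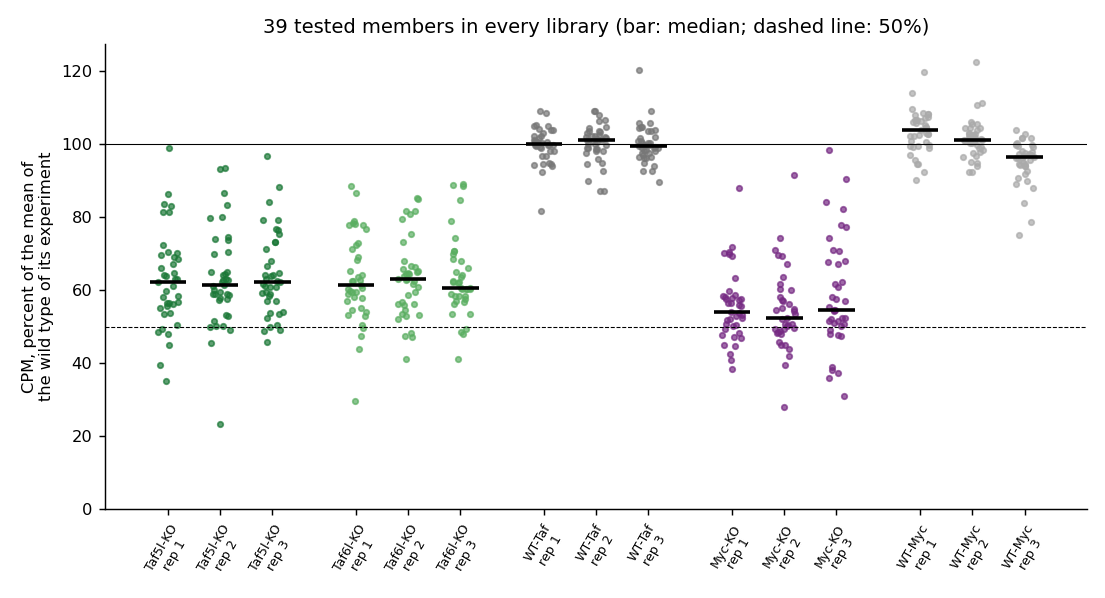
Level of the 39 tested genes in each of the 15 libraries (vertical axis, percent of the mean CPM of the wild type of the same experiment, starting at 0); each point is a gene, the bar is the median of the library, and each knockout stands to the left of its wild type. Median levels were 60.6% to 63.0% in the 6 Taf-knockout libraries, 99.3% to 101.1% in WT-Taf libraries, 52.3% to 54.7% in Myc-KO libraries and 96.3% to 103.8% in WT-Myc libraries.

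The log2 fold changes differed between the genes by more than their SE, which covers only the spread between libraries. Since these contrasts chose the genes, the values that follow are a description, and their cause was not tested. The SD between the 39 log2 fold changes was 0.27 in Taf5l-KO, 0.24 in Taf6l-KO and 0.28 in Myc-KO, where the median SE of a gene was 0.057, 0.056 and 0.076. Within 0.25 of the median lay 25, 26 and 28 of the 39 genes, and the 95% interval of 16, 19 and 20 genes held it. A log2 fold change of -1 lay in the interval of 8, 6 and 19 genes, and 5, 4 and 12 genes were below -1. Among the 24 genes averaging 500 counts or more, the SD was 0.20, 0.21 and 0.27. Log2 fold change and log2 mean count had Pearson r of -0.028, -0.099 and 0.34 over the 39 genes.

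**Figure D4:**
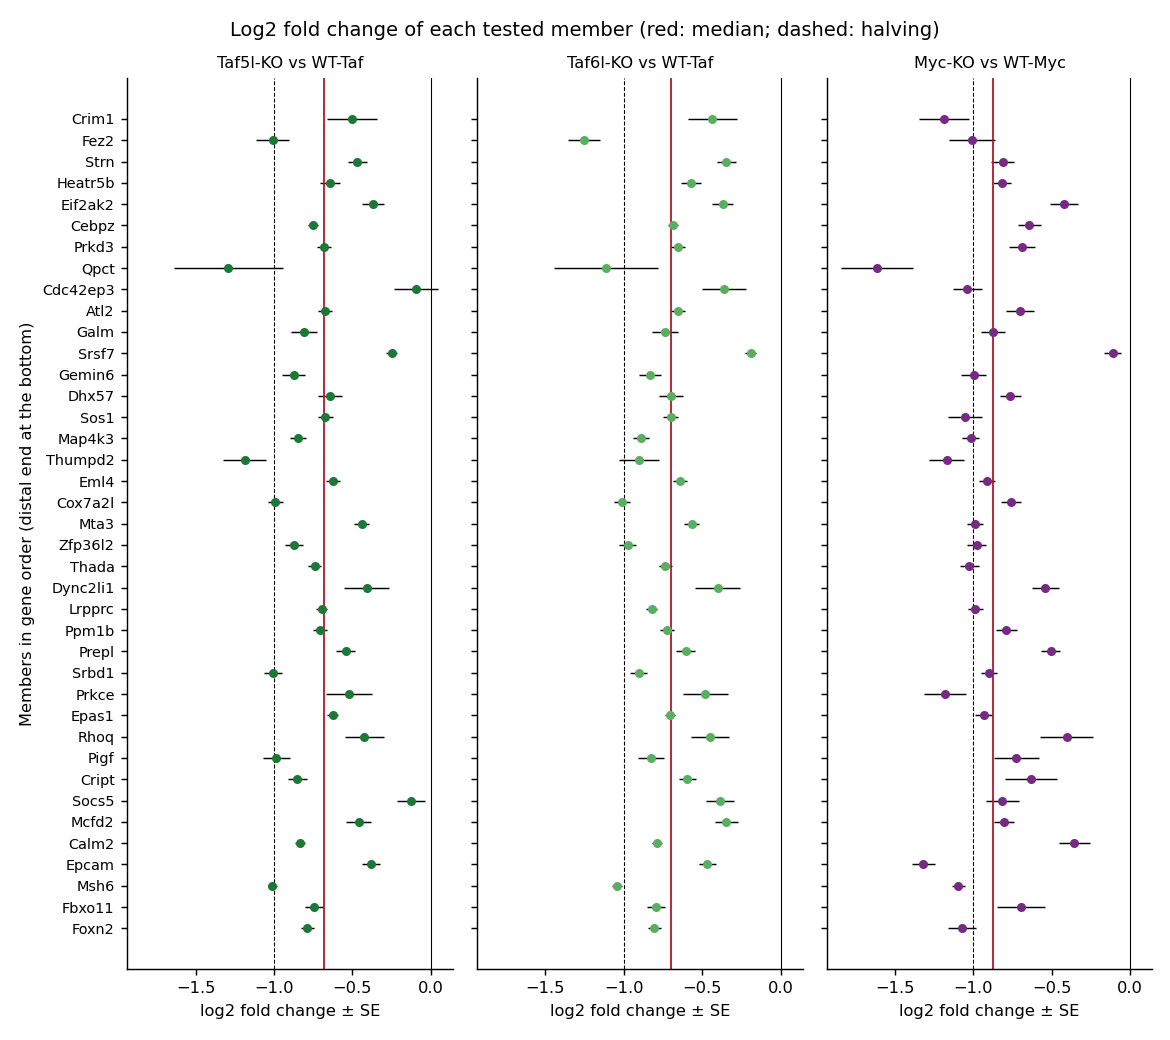
Log2 fold change ± SE (horizontal axis) of each of the 39 tested genes in gene order (vertical axis, distal end at the bottom) in Taf5l-KO and Taf6l-KO against WT-Taf and in Myc-KO against WT-Myc; the red line is the median of the panel and the dashed line marks -1. Points spread around medians of -0.68, -0.70 and -0.88 by more than their error bars, from Qpct (-1.29) to Cdc42ep3 (-0.093) in Taf5l-KO, Fez2 to Srsf7 (-0.19) in Taf6l-KO and Qpct (-1.61) to Srsf7 (-0.11) in Myc-KO.

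The lowest knockout levels relative to wild type were of several roles. Qpct, which forms pyroglutamate at the ends of peptides, had 0.534, 0.357 and 0.939 CPM in Taf5l-KO and 0.451, 0.717 and 0.919 CPM in Taf6l-KO, against 1.24, 1.49 and 1.83 CPM in WT-Taf. It had 1.09, 0.792 and 0.876 CPM in Myc-KO, against 2.80, 3.47 and 2.23 CPM in WT-Myc. Its groups did not overlap, and its log2 fold changes of -1.29 ± 0.35, -1.11 ± 0.33 and -1.61 ± 0.23 carry the widest errors of the 39, with 7 to 75 counts per library. Thumpd2, a THUMP-domain protein that acts on RNA, had 2.61, 3.01 and 3.03 CPM in Taf5l-KO and 3.33, 3.20 and 4.00 CPM in Taf6l-KO, against 7.17, 5.77 and 6.90 CPM in WT-Taf. In the c-Myc experiment it had 3.76, 4.13 and 4.38 CPM in Myc-KO, against 8.28, 9.75 and 9.55 CPM in WT-Myc, which is 44.5% of wild type.

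Fez2, of the fasciculation and elongation zeta family, had 4.45, 4.43 and 4.33 CPM in Taf5l-KO and 3.87, 3.64 and 3.63 CPM in Taf6l-KO, against 8.68, 9.65 and 8.19 CPM in WT-Taf. Its Myc-KO libraries held 8.28, 7.48 and 5.58 CPM, against 15.0, 14.7 and 13.1 CPM in WT-Myc. Fez2 was at 49.7%, 41.9% and 49.7% of wild type in Taf5l-KO, Taf6l-KO and Myc-KO, without overlap of the groups. Srbd1, which has an S1 RNA-binding domain, was at 49.7%, 53.4% and 53.6%, and Cox7a2l, an assembly factor of respiratory supercomplexes, at 50.3%, 49.7% and 59.1%. Prkce, the epsilon isoform of protein kinase C, was at 69.6% and 71.7% of WT-Taf in Taf5l-KO and Taf6l-KO and had 5.37, 4.27 and 3.80 CPM in Myc-KO, against 10.1, 10.4 and 9.89 CPM in WT-Myc.

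Among the 4 genes nearest to their wild-type level, Srsf7 was found in every knockout and Eif2ak2 in Taf5l-KO and Myc-KO. Srsf7, an SR protein of pre-mRNA splicing, had 155, 165 and 161 CPM in Taf5l-KO and 169, 162 and 169.8 CPM in Taf6l-KO, against 194, 186 and 192 CPM in WT-Taf. It had 168, 175 and 188 CPM in Myc-KO, against 196, 192 and 186 CPM in WT-Myc, where the groups overlap and the gene was not called. Eif2ak2, the kinase PKR that double-stranded RNA activates, was at 77.5%, 77.4% and 74.6% of wild type in Taf5l-KO, Taf6l-KO and Myc-KO.

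Cdc42ep3, an effector of the small GTPase CDC42, had 4.16, 3.92 and 3.71 CPM in Taf5l-KO and 3.29, 2.70 and 3.72 CPM in Taf6l-KO, against 4.42, 3.78 and 4.40 CPM in WT-Taf. In Myc-KO it had 6.02, 6.16 and 6.20 CPM, against 13.7, 12.3 and 11.9 CPM in WT-Myc. The Taf5l-KO and WT-Taf libraries overlap, Taf6l-KO was below WT-Taf without being called, and Myc-KO was at 48.7% of WT-Myc. Socs5, a suppressor of cytokine signalling, had 8.90, 9.99 and 10.4 CPM in Taf5l-KO and 8.34, 8.77 and 7.49 CPM in Taf6l-KO, against 10.8, 10.3 and 11.1 CPM in WT-Taf. Its levels were 5.21, 6.33 and 5.44 CPM in Myc-KO, against 9.88, 9.85 and 10.1 CPM in WT-Myc, so that only the Taf5l-KO libraries overlap their wild type.

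Strn, the striatin scaffold of phosphatase complexes, was at 72.3%, 78.7% and 56.9% of wild type in Taf5l-KO, Taf6l-KO and Myc-KO. Mcfd2, a cofactor of the LMAN1 cargo receptor between endoplasmic reticulum and Golgi, was at 72.6%, 78.7% and 57.3%. Rhoq, a small GTPase, was at 74.5% and 73.2% of WT-Taf in Taf5l-KO and Taf6l-KO and had 6.30, 6.42 and 7.59 CPM in Myc-KO, against 10.3, 10 and 6.78 CPM in WT-Myc, where the groups overlap through replicate 3 of WT-Myc. Without replicate 3 of Myc-KO, Srsf7 (-0.14) and Rhoq (-0.47) were called lower in Myc-KO as well, and all 39 genes then were. Rhoq was also called without replicate 3 of WT-Myc (-0.58), and Cdc42ep3 in Taf6l-KO without replicate 3 of that group (-0.47).

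By role, the genes of transcription and chromatin (Cebpz, Mta3, Epas1 and Foxn2) had median log2 fold changes of -0.69 in Taf5l-KO, -0.69 in Taf6l-KO and -0.96 in Myc-KO, and all 4 were called lower in each. Epas1, the hypoxia-inducible factor HIF-2 alpha, had -0.63 ± 0.034, -0.70 ± 0.033 and -0.93 ± 0.054, and Mta3, a subunit of the NuRD corepressor, -0.44 ± 0.046, -0.57 ± 0.046 and -0.99 ± 0.053 (SE). Cebpz, a CCAAT-binding protein, was at -0.75 ± 0.032, -0.69 ± 0.032 and -0.64 ± 0.073. Counts by role, here and below, are of genes that these contrasts chose, so nothing is read from them. Of all genes, 15.9%, 18.2% and 19.5% were called lower in Taf5l-KO, Taf6l-KO and Myc-KO.

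The 9 genes of RNA processing, decay and translation had medians of -0.74, -0.82 and -0.98, and 9, 9 and 8 of them were called lower. Lrpprc, which stabilises mitochondrial messenger RNA, was at -0.69 ± 0.035, -0.82 ± 0.035 and -0.99 ± 0.048 in Taf5l-KO, Taf6l-KO and Myc-KO. Zfp36l2, which binds AU-rich elements and speeds RNA decay, was at -0.87 ± 0.056, -0.97 ± 0.055 and -0.98 ± 0.061. Gemin6, of the SMN complex that loads spliceosomal ribonucleoproteins, was at -0.87 ± 0.073, -0.83 ± 0.072 and -1.0 ± 0.077. Thada, a large armadillo-type protein, and Dhx57, a DExH-box helicase, lay between -0.64 and -1.03.

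The 11 genes of signalling and ubiquitin ligation had medians of -0.67, -0.65 and -0.81, with 9, 10 and 10 called lower. They include Sos1, the Ras exchange factor, at -0.67 ± 0.047, -0.70 ± 0.046 and -1.06 ± 0.11, and Map4k3, a kinase of amino acid signalling, at -0.85 ± 0.051, -0.89 ± 0.051 and -1.02 ± 0.054. Ppm1b, a protein phosphatase, and Prkd3, a protein kinase D, lay between -0.65 and -0.79.

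The 10 genes of trafficking, cytoskeleton, membrane and adhesion had medians of -0.64, -0.58 and -0.81, and all 10 were called lower in each knockout. Eml4, a microtubule-associated protein, was at -0.62 ± 0.043, -0.64 ± 0.043 and -0.91 ± 0.052, and Pigf, which acts in GPI-anchor synthesis, at -0.99 ± 0.085, -0.83 ± 0.082 and -0.73 ± 0.14. Cript, whose promoter window overlaps that of Pigf as printed above, was at -0.85 ± 0.058, -0.59 ± 0.056 and -0.63 ± 0.17. Atl2, an atlastin GTPase of the endoplasmic reticulum, Heatr5b, a clathrin-adaptor partner, and Dync2li1, a light chain of the ciliary dynein, lay between -0.40 and -0.82. The 4 tested enzymes had medians of -0.90, -0.87 and -0.82, with all 4 called lower, among them Galm, the galactose mutarotase, at -0.81 ± 0.085, -0.74 ± 0.083 and -0.88 ± 0.076 and Prepl, a prolyl endopeptidase-like hydrolase, at -0.54 ± 0.061, -0.60 ± 0.061 and -0.51 ± 0.060.

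Levels per transcript length spanned a wide range. In WT-Taf libraries Calm2 averaged 788 ± 3.6 FPKM, Lrpprc 377 ± 16, Srsf7 334 ± 15, Msh6 204 ± 2.0 and Mta3 169 ± 12 FPKM, down to 1.77 ± 0.55 for Qpct and 0.639 ± 0.074 for Crim1 (SD, n = 3). In Taf5l-KO libraries Msh6 averaged 101 ± 2.2 FPKM and in Taf6l-KO libraries 98.2 ± 2.0 FPKM. In the c-Myc experiment Msh6 averaged 117 ± 2.4 FPKM in Myc-KO and 245 ± 5.2 FPKM in WT-Myc.

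Relatives of these genes on other stretches of the genome had medians near 0. Over 48 tested paralogs elsewhere, of a list of 50, the median log2 fold change was 0.033 in Taf5l-KO, -0.034 in Taf6l-KO and -0.035 in Myc-KO, with 6, 12 and 12 called lower (15.9%, 18.2% and 19.5% of all genes were) and 13, 12 and 5 called higher (17.4%, 19.1% and 15.2%). Mta1 and Mta2, the other NuRD subunits of the family, lay between -0.37 and 0.10, and Sos2 was at 0.30 and 0.34 in Taf5l-KO and Taf6l-KO and at -0.89 in Myc-KO. Calm3, which encodes the same protein as Calm2, had log2 fold changes of 0.042 ± 0.034, -0.048 ± 0.034 and 0.28 ± 0.055.

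Of the mismatch repair genes on other chromosomes, 7 were tested. Their median was -0.14 in Taf5l-KO, -0.16 in Taf6l-KO and 0.13 in Myc-KO, with 3, 4 and 0 called lower by edgeR's quasi-likelihood test (15.9%, 18.2% and 19.5% of all genes were) and none higher. Msh3, whose protein also pairs with the partner of MSH6, was at -0.060 ± 0.048, -0.16 ± 0.048 and 0.13 ± 0.072, and Pcna, the sliding clamp, at -0.27 ± 0.040, -0.42 ± 0.040 and 0.13 ± 0.053 (log2 fold change ± SE). Over the 14 tested partners of the other genes, such as Arnt, Lman1 and the Gemin proteins, the median was -0.024, 0.022 and 0.0075. Of these 14, 2, 1 and 2 were called lower and 3, 4 and 4 higher (17.4%, 19.1% and 15.2% of all genes).

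The comparison of the wild types was not used to choose the genes. In WT-Taf against WT-Myc the median log2 fold change of the 39 genes was -0.19, against 0.016 over all genes, with 22 called lower (32.5% of all genes) and 7 called higher (33%), by edgeR's quasi-likelihood test in a fit of all 15 libraries. Msh6 had 789, 797 and 779 CPM in WT-Taf, against 1044, 1050.2 and 1013 CPM in WT-Myc, each scaled within its experiment, and a log2 fold change of -0.28 ± 0.033 (adjusted p = 2.24e-06, lower in 3 of 3 libraries). Cdc42ep3 was lower in WT-Taf by far, at -1.47 ± 0.11 (adjusted p = 8.26e-09), as was Dync2li1 at -1.04 ± 0.11 (adjusted p = 6.27e-07). Foxn2 (0.65 ± 0.063), Fbxo11 (0.60 ± 0.11), Cript (0.57 ± 0.11) and Epas1 (0.57 ± 0.039) were higher in WT-Taf. Wild-type levels therefore differed in both directions, with an SD of 0.45 between the genes. The wild types belong to separate experiments, and the share of counts in small non-coding RNA genes was 7.94% to 8.40% in WT-Taf and 0.0779% to 0.101% in WT-Myc, so library preparation and cells cannot be told apart here.

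The Taf knockouts were next to each other in level. In Taf6l-KO against Taf5l-KO the median log2 fold change of the 39 genes was -0.0021, and 37 genes were called neither way. Cript was higher in Taf6l-KO, with 19.5, 18.8 and 18.5 CPM there, against 15.7, 16.8 and 14.9 CPM in Taf5l-KO (0.26 ± 0.060, adjusted p = 0.0084). Lrpprc was lower, with 109, 107 and 108 CPM in Taf6l-KO, against 111, 119.6 and 122 CPM in Taf5l-KO (-0.13 ± 0.036, adjusted p = 0.024, lower in 3 of 3 libraries). Those 2 calls by edgeR's quasi-likelihood test compare with 8.55% of all genes called higher and 10.1% called lower. Without replicate 2 or 3 of either knockout, Lrpprc was no longer called (-0.13 to -0.10).

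Between the experiments the effect differed for some genes. The log2 fold change in Myc-KO minus the mean of both Taf knockouts had a median of -0.083 over the 39 genes, against 0.019 over all genes, and in edgeR's interaction test 14 genes were called lower (16.9% of all genes) and 3 higher (18.4%). This difference is built from the contrasts that chose the genes, so its calls are a description and carry no test. The 17 genes called are given with their values in the closing part. Over the 39 genes the Myc-KO log2 fold change had a Pearson r of 0.35 (Spearman 0.23) with that of Taf5l-KO and 0.42 (0.32) with that of Taf6l-KO, and the genes share the libraries of each contrast.

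Likeness to Msh6 was measured as Pearson r of log2 CPM over the 15 libraries, centred within each experiment, among 14141 genes. Map4k3 was the most like it (r = 0.994), Lrpprc had 0.991, and Vrk1 and Ubr7, both on chromosome 12, had 0.992 and 0.991. Of the 10 most like genes, 6 were among the 41 described here, and of the 30 most like, 13. Foxn2 (0.983), Fbxo11 (0.941), Calm2 (0.902) and Epcam (0.885) lay next to Msh6 on the chromosome, and Rhoq was the least like it of the 38 others (0.769). The r values share the same 15 libraries, and the difference between knockouts and wild types is part of each.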

How the data were processed

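RNA-seq libraries of 5 groups of 3 were grouped by their titles. Per the labels' protocols, ribosomal RNA was depleted from total RNA and a directional kit was used. Salmon 0.8.2, DESeq2 1.14.1 and the build mm9 are listed, with no role for each, per the submitters' processing notes. Gene-level estimated counts were deposited by the authors in whole numbers, 1 column per library, of 14935631 to 27650813 in total; these were used as deposited. The authors also deposited FPKM values and a normalized signal (counts scaled between libraries, not by a single factor per library), both used only as alternatives and for levels per length. A further table was not used: 15 of its columns could not be assigned.

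The 9 libraries of the Taf experiment and the 6 of the c-Myc experiment were fitted separately with edgeR 4.0.16 (R 4.3.3; TMM scaling, filterByExpr, quasi-likelihood F test, Benjamini-Hochberg over all genes, threshold 0.05). Comparisons between experiments used all 15. Log2 fold changes are given with an SE of their size divided by the square root of F. CPM used TMM-scaled library sizes within an experiment. Where rows shared a symbol (3386 rows in all), the most abundant was taken. Gene order came from an annotation of build GRCm38 matched by gene ID (32620 of 37310 genes), so no coordinates in the authors' build are given. The procedure was tested on simulated data. Alternatives used DESeq2 1.42.0 and limma 3.58.1 (log2 of FPKM + 1 or + 0.1 at a mean FPKM of at least 0.5).

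The genes and the lists of paralogs, partners and markers were chosen with earlier results of these data known. Values per library were given for Msh6, its nearest 4 genes, the outermost genes, and those with the largest and smallest changes in each knockout; further genes that this rule or the lists name are not reported here. Of the 41 genes, 11 overlap another protein-coding gene and 18 an annotated gene on the other strand; whether counting used strand is not stated in the labels, so their counts are uncertain to that extent.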

Additional observations from a re-analysis of the deposited data

Results flagged for a closer look

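Several genes differed between the experiments in the size of their effect, by edgeR's interaction test (log2 fold change of Myc-KO against WT-Myc minus the mean log2 fold change of Taf5l-KO and Taf6l-KO against WT-Taf; p-values adjusted over all genes; n = 3 libraries a group). That difference is built from the contrasts that chose the genes, so the calls given here are a description. The difference was -0.85 for Epcam, -0.77 for Cdc42ep3, -0.68 for Crim1, -0.64 for Prkce and -0.51 for Socs5. It was -0.44 for Mta3, -0.36 for Strn, -0.36 for Mcfd2, -0.33 for Sos1, -0.25 for Thada and -0.24 for Eml4. Smaller values of this kind were -0.23 for Foxn2, -0.23 for Epas1 and -0.19 for Lrpprc. A positive difference was found for Calm2 (0.49), Cox7a2l (0.28) and Srsf7 (0.15), which were thus nearer to wild type in Myc-KO than in the Taf knockouts. Foxn2, Sos1 and Srsf7 were no longer called in 11, 5 and 9 of the 15 fits that leave out 1 library, Crim1 without replicate 2 and Prkce without replicate 1 of WT-Taf. Fez2 (0.33) was called in 1 of those fits, without replicate 3 of Myc-KO. The knockouts differ between experiments together with the wild-type libraries and their small RNA content, whose part in these differences was not tested.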

How the results depend on the processing

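The median over the 39 genes stayed negative in each knockout under every alternative run, and RLE scaling and summing rows that share a symbol moved no count by over 1.5 times. With a 2-fold minimum the genes called lower numbered 5 in Taf5l-KO, 4 in Taf6l-KO and 12 in Myc-KO, those called in WT-Taf against WT-Myc 2 lower and 0 higher, and 0 in each direction in Taf6l-KO against Taf5l-KO and between experiments. Scaling by library totals gave medians of -0.63 in Taf6l-KO, -0.84 in Myc-KO, -0.30 in WT-Taf against WT-Myc (4 higher) and 0.089 in Taf6l-KO against Taf5l-KO (0 lower, 6 higher); Lrpprc (-0.10) and Srsf7 (-0.0011) then turned negative in WT-Taf against WT-Myc. Limma on log2(FPKM + 1), on log2(FPKM + 0.1) and on the normalized signal gave -0.67 in Taf6l-KO (FPKM + 1), -0.77, -0.82 and -0.84 in Myc-KO, -0.024, -0.025 and -0.025 in Taf6l-KO against Taf5l-KO (0 lower and 0 higher in each), 4, 4 and 4 higher in WT-Taf against WT-Myc, where Srsf7 was -0.030 in each, and 7 lower between experiments in both FPKM fits. A fit of all 15 libraries gave -0.85 in Myc-KO and 0 lower and 0 higher in Taf6l-KO against Taf5l-KO, where DESeq2 called 0 higher. WT-Taf against WT-Myc had a median of -0.24 without a count filter and of -0.17 with the 6 libraries alone. Leaving out 1 library gave medians of -0.71 to -0.68 in Taf5l-KO, -0.89 to -0.85 in Myc-KO, -0.22 to -0.16 in WT-Taf against WT-Myc and -0.11 to -0.056 between experiments, 34 to 37, 34 to 38 and 35 to 39 genes called lower in Taf5l-KO, Taf6l-KO and Myc-KO, and 0 to 2 lower in Taf6l-KO against Taf5l-KO; the cause of these shifts was not tested. Single genes lost their call in such fits: Crim1 (-0.50 to -0.32), Dync2li1 (-0.45 to -0.27), Prkce (-0.46 to -0.38), Qpct (-1.0 to -0.86) and Rhoq (-0.39 to -0.34) in a Taf knockout, and Calm2 (-0.36 to -0.28) and Cript (-0.66 to -0.49) in Myc-KO without replicate 1 or 2 of Myc-KO or of WT-Myc. Same-numbered libraries did not deviate together (r of -0.38 to -0.0017), and with the replicate block 37, 37 and 35 genes were called lower. Depth limits Qpct, Cyp1b1 and Haao.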

Other observations

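A second run of neighbouring genes, outlined after its values were seen and so given with no test, lies on chromosome 12 between Ston2 and Wdr25. Its 57 tested protein-coding genes had a median log2 fold change of -0.47 in Taf5l-KO, -0.46 in Taf6l-KO and -0.82 in Myc-KO, or 72.2%, 72.9% and 56.6% of wild type. Of the 57 genes, 38, 42 and 51 were called lower and 2, 3 and 0 higher, and 37 were called lower in all 3 knockouts. Of all genes tested, 15.9%, 18.2% and 19.5% were called lower, and 3.39% in all 3 knockouts. The other 366 tested protein-coding genes of the chromosome had medians of 0.013, 0.027 and -0.0040, with 65, 51 and 68 called lower. Papola, the main nuclear poly(A) polymerase, was at -0.72 ± 0.031, -0.75 ± 0.031 and -0.81 ± 0.089 in Taf5l-KO, Taf6l-KO and Myc-KO (log2 fold change ± SE). Ubr7 had -0.80 ± 0.037, -0.95 ± 0.037 and -0.99 ± 0.052, and Vrk1, a chromatin kinase, -0.64 ± 0.046, -0.68 ± 0.046 and -0.61 ± 0.049. Zc3h14, a poly(A)-binding protein, was at -0.65 ± 0.042, -0.63 ± 0.041 and -0.62 ± 0.071. The cause of these values was not tested.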
